A study of Homo sapiens with 4 samples.

Results

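The metallothionein and zinc export genes MT1E, MT1F, MT1G, MT1M, MT1X, MT2A, MTF1 and SLC30A1 were examined by symbol in the deposited RNA-seq table of MDA-MB-231 cells, and 6 of these 8 genes were listed, with 15 of the 43596 transcripts and 6 of the 15113 gene symbols. MT1G and MT1M have no row in the table. MDA-MB-231 is an established human triple-negative breast cancer line with a mesenchymal shape and gene program, grown here in DMEM with serum. The labels describe 4 libraries, 2 from cells given DMSO, the solvent, and 2 from cells given 10 µM KH-3, all taken after 24 h. KH-3 is an inhibitor of the RNA-binding protein HuR that carries a hydroxamic acid, a group known to hold metal ions.

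The one quantity used per transcript was the mean normalized read count, which the authors averaged over libraries, so each value below is a level and not a difference between DMSO and KH-3. The sources used here do not say over which libraries the mean was taken, and the study's methods also name a 5 µM KH-3 group. The table's other measurements are the authors' own comparison of KH-3 with DMSO, which was not used, so the effect of KH-3 on these genes was not analysed here. There is no value per library, so depth is unknown, no level has an error, and no 2 levels could be tested against each other. A level is given per kilobase (kb) of transcript length, as listed in the table, and a gene level is the sum over its listed transcripts. Levels are averages over all cells of the culture.

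Metallothioneins are small cytosolic proteins in which cysteines hold zinc, copper or cadmium in clusters, and they buffer free zinc. MTF1 is the zinc-finger transcription factor that senses a rise in free zinc and switches on the metallothionein genes and SLC30A1 through short metal response elements. SLC30A1, also named ZnT1, is the zinc exporter of the plasma membrane. The MT1 genes and MT2A lie together on human chromosome 16 and arose by duplication, so their messages are alike in sequence.

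The reading frames of the listed metallothioneins are shown first, since their likeness can bear on the levels given, to a degree that differs by gene. They were read from GENCODE release 44, each from the transcript with 3 coding exons, and run 5′ to 3′ from start to stop codon with the cysteine codons in capitals.
MT2A: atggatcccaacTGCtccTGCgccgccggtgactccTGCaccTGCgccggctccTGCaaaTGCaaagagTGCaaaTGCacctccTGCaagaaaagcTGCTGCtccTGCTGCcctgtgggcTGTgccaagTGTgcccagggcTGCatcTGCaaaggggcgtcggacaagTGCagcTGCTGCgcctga
MT1E: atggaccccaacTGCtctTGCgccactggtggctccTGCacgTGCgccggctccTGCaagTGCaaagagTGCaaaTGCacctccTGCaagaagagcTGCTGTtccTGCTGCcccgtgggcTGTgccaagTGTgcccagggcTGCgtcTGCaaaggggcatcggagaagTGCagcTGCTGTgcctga
MT1X: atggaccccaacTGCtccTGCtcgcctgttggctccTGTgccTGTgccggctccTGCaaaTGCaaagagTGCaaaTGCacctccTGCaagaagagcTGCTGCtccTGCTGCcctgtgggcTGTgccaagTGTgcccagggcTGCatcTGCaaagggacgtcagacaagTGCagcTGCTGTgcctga
MT1F: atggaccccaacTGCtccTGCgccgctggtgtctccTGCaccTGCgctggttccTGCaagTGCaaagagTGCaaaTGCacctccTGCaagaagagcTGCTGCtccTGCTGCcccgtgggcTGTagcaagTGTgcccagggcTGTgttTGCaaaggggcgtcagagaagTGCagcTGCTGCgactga
On hg38 these frames lie on the plus strand at chr16:56608656-56609354 for MT2A, chr16:56625852-56626971 for MT1E, chr16:56682541-56684049 for MT1X and chr16:56658059-56659164 for MT1F.

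All 4 frames had 186 bases with the stop codon, and 61 codons before it. Of these, 20 were cysteine codons, or 32.8%, and they stood at the same positions in the lines above. The frames were split in the same way, with 28, 66 and 89 coding bases in the exons in order, the stop codon not counted. MT1M, which has no row, shared this division, while MT1G, also without a row, had 69 bases in the second exon and 62 codons. Between the listed genes, 14 to 21 of the 186 bases differed. MT2A differed from MT1E and from MT1X at 14 bases each, an identity of 92.5%, and MT1F and MT1X were the least alike at 88.7%. The longest run without a difference was 63 bases, between MT1X and MT2A.

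Summed over all listed transcripts, MT2A had the highest level of the 6 genes. MT2A, the major metallothionein of most tissues, lies at chr16:56608584-56609497 and had a level of 9664 per kb, above 99.6% of the listed genes, with 56 genes higher. Its level was 89.2 times the median gene level of 108 per kb, and 14.6 times the median when protein-coding transcripts alone were summed for every gene. MT1E, at chr16:56625475-56627112, followed with 2807 per kb, at percentile 98.2. MT2A was thus 3.44 times as high as MT1E when all listed transcripts were summed, but 0.610 times as high with protein-coding transcripts alone. MT1X, at chr16:56682470-56684196, had 844 per kb at percentile 90.7.

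MT1F, at chr16:56657731-56660698, was far below the other metallothioneins with 67.7 per kb, at percentile 40.6. MT1X was 12.5 times and MT2A 143 times as high as MT1F, the latter 27.3 times with protein-coding transcripts alone. The 4 genes together came to 13383 per kb, of which MT2A held 72.2%, MT1E 21.0%, MT1X 6.31% and MT1F 0.506%. With protein-coding transcripts alone the shares were 32.3% for MT2A, 53.0% for MT1E, 13.4% for MT1X and 1.184% for MT1F, so MT1E was then first. In both sums MT2A and MT1E together held most of the level, and MT1F the least.

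Per kb of transcript, the sensor and the exporter were at the level of an ordinary gene. MTF1, on the minus strand at chr1:37809574-37859592, was listed with 1 transcript at 59.6 per kb, at percentile 38.2. SLC30A1, on the minus strand at chr1:211571568-211579161, was listed with 1 transcript at 110 per kb, at percentile 50.3. Over all listed transcripts, MT2A had 162 times the level of MTF1 and 88.0 times that of SLC30A1. These ratios were 28.7 and 15.6 with protein-coding transcripts alone, 10.0 and 7.92 without division by length, and 279 and 150 with 200 bases taken off each length. Without division by length MT2A was 17.0 times the median gene, so MTF1 and SLC30A1 were then above that median. Over all listed transcripts per kb, SLC30A1 and MTF1 were within 1.84 times of each other, and MT1F and MTF1 within 1.14 times. MT1F had 1.98 times the MTF1 level with 200 bases taken off each length. That ratio was 0.870 with the highest transcript alone and 0.0779 without division by length. SLC30A1 was above MTF1 in every setting, by 1.27 times without division by length. Without values per library, the order of these 3 genes remains untested and is not fixed.

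**Figure D1:**
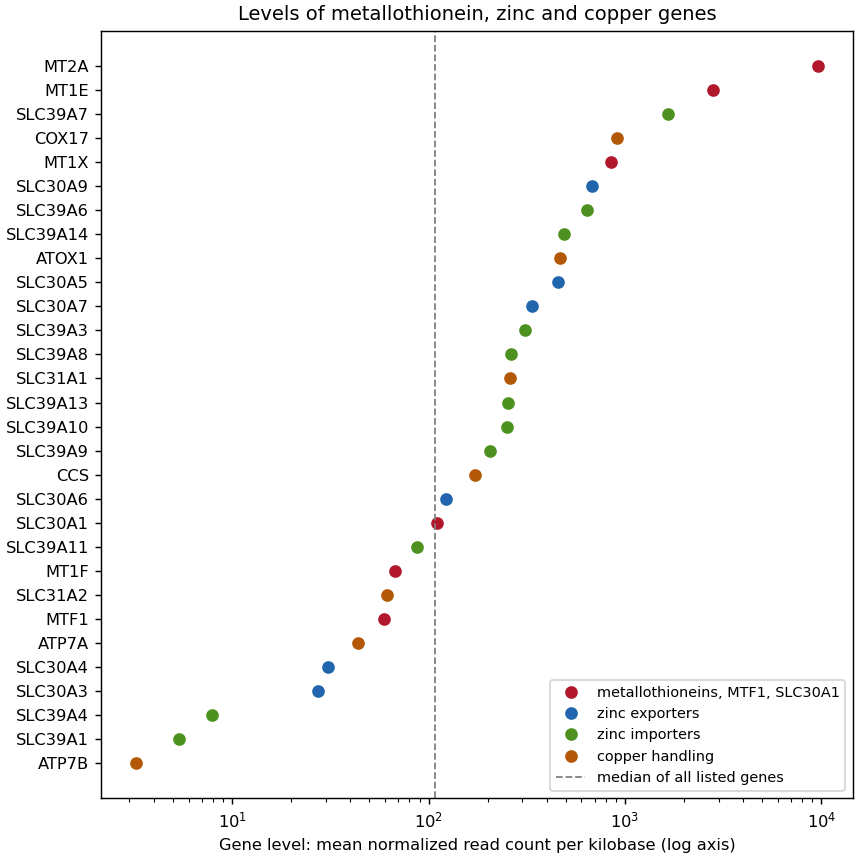
Gene level (mean normalized read count per kb, log axis) of the listed metallothioneins, MTF1 and SLC30A1, in red, beside other listed genes of the SLC30 family (zinc exporters in the key), zinc importers and copper-handling genes. There is 1 point per gene and no error, since the table holds 1 mean per transcript. Summed over all listed transcripts, MT2A at 9664 and MT1E at 2807 lie right of all the others, while SLC30A1, MT1F and MTF1 lie near the dashed median of 108.

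Among the listed genes of the SLC30 family, SLC30A1 was not the highest. Of the other 9 genes of the SLC30 family, most of which move zinc out of the cytosol, 6 were listed, with SLC30A9 at 678, SLC30A5 at 457 and SLC30A7 at 336 per kb, and a range from 27.4 to 678. SLC30A1 was in place 5 of the 7 listed, and SLC30A9 was 6.18 times as high. With protein-coding transcripts alone SLC30A1 was in place 4 and SLC30A9 was 1.47 times as high. SLC30A5 and SLC30A7 are known to load zinc into the secretory pathway. Of the 14 importers of the SLC39 family, 11 were listed, from 5.38 to 1652 per kb with a median of 254, and 8 of the 11 were above SLC30A1. SLC39A7, which releases zinc from the endoplasmic reticulum, led them with 1652, before SLC39A6 with 637 and SLC39A14 with 489, both transporters of the cell surface. All 7 copper-handling genes were listed, from 3.22 to 909 per kb, with COX17 at 909 and ATOX1, a copper chaperone like COX17, at 470, and the copper importer SLC31A1 at 261.

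Of the 13 other metallothionein genes and pseudogenes looked up, among them MT1A, MT1H, the neuronal MT3 and the epithelial MT4, none had a row. The lowest mean normalized read count in the table is 7.34, so an unlisted gene may have had a lower mean or been left out for another reason, and no level can be given for it. In GENCODE release 44 the chromosome 16 cluster, from MT4 to MT1X, holds 16 metallothionein symbols in 119124 bases, 11 of them protein-coding. The table lists 4 of the 11. These 4 are not neighbours, since MT1L lies between MT2A and MT1E, and MT1M, MT1A and MT1B are among the genes between MT1E and MT1F. MT1G, MT1H and MT1IP lie between MT1F and MT1X.

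**Figure D2:**
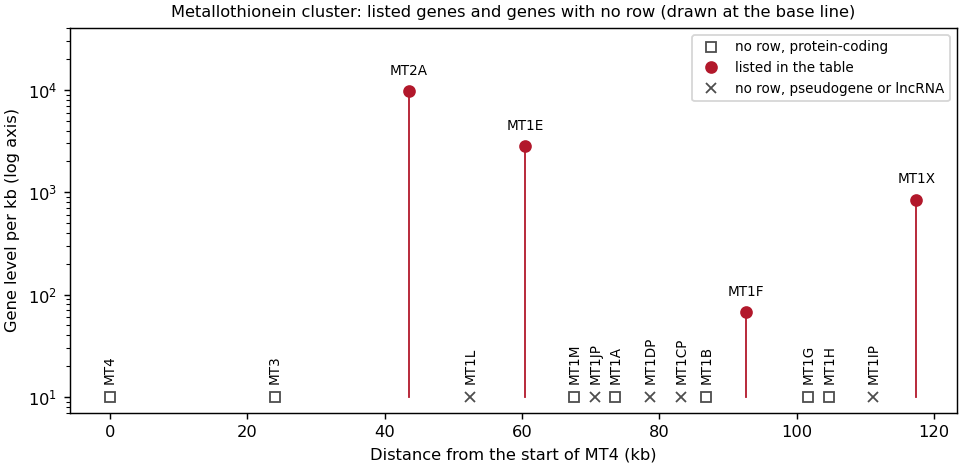
Position of each metallothionein gene of the chromosome 16 cluster, as distance in kb from the start of MT4, against its gene level per kb on a log axis. The 4 listed genes are red points from 67.7 (MT1F) to 9664 (MT2A), and genes with no row are drawn at the base line, which stands for no value.

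The level of MT2A was spread over 5 transcripts, and nearly all of it was assigned to forms without the complete reading frame. MT2A-004, typed as a processed transcript, had the highest mean normalized read count of all listed metallothionein transcripts, 2626, or 6313 per kb at its 416 bases. That was 65.3% of the gene level. MT2A-005, typed as protein-coding, had a mean normalized read count of 989 and a level of 1702.5 per kb, 17.6% of the gene level. MT2A-006, another processed transcript, had 1087 and a level of 1579 per kb, 16.3% of the gene level.

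The remaining MT2A forms were low. MT2A-002, in which both introns are retained, had a mean normalized read count of 54.2 and a level of 60.0 per kb. MT2A-001, the form whose 3 coding exons give the 61 codons printed above, had a mean normalized read count of 7.38, close to the lowest value of the table, and a level of 9.39 per kb, or 0.0971% of the gene level. MT2A-001 is listed with 786 bases, but has 401 in GENCODE release 44, while MT2A-004, MT2A-005, MT2A-006 and MT2A-002 have the same length in both.

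The structures show what the forms have in common. In release 44, MT2A-004 starts in the first intron of MT2A-001, lacks the start codon, and shares the other exons with it. MT2A-005 joins the first exon to the second and retains the second intron, and its frame of 222 bases has 73 codons, 12 of them for cysteine. MT2A-006 keeps the first intron. The 401 bases that MT2A-001 has in release 44 were cut into all windows of 50 bases. Of these 352 windows, 0 were found in that form alone, against 46 of 367, or 12.5%, for MT2A-004. MT2A-005, MT2A-006 and MT2A-002 also had 0 such windows. With windows of 100 bases, the share found in 1 form alone was 16.6% for MT2A-001 and 30.3% for MT2A-004. It was 6.43% for MT2A-005, 6.62% for MT2A-006 and 3.86% for MT2A-002. The listed MT2A-001 has 786 bases, and bases absent from release 44 were not searched. How much sequence the listed form has of its own is thus unknown. Of the 50-base windows of MT2A-001 in release 44, 71.9% also occurred in MT2A-004, 79.3% in MT2A-005 and 81.0% in MT2A-006. A read from the shared exons can thus belong to several forms, and the share of each form is an estimate made by eXpress. How the longer listed form of MT2A-001 bears on that estimate was not tested.

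In MT1E too, most of the level was assigned to forms without the complete frame. MT1E-003, in which the second coding exon is skipped, had a mean normalized read count of 735 and 2214 per kb, 78.9% of the gene level. Its frame joins 28 and 89 coding bases and has 39 codons, 13 of them for cysteine. MT1E-002, which reads through the second intron, had a mean normalized read count of 350 and 480 per kb, 17.1% of the gene level. MT1E-001, with the complete frame of 61 codons, had a mean normalized read count of 79.6 and 113 per kb, 4.03% of the gene level. It is listed with 704 bases, as in release 44, since its first exon begins farther upstream than in the other forms. Only 16.6% of the 50-base windows of MT1E-003 were found in that form alone, and 83.0% also occurred in MT1E-001. For MT1E-001 and MT1E-002 the shares found in that form alone were 53.1% and 50.5%.

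**Figure D3:**
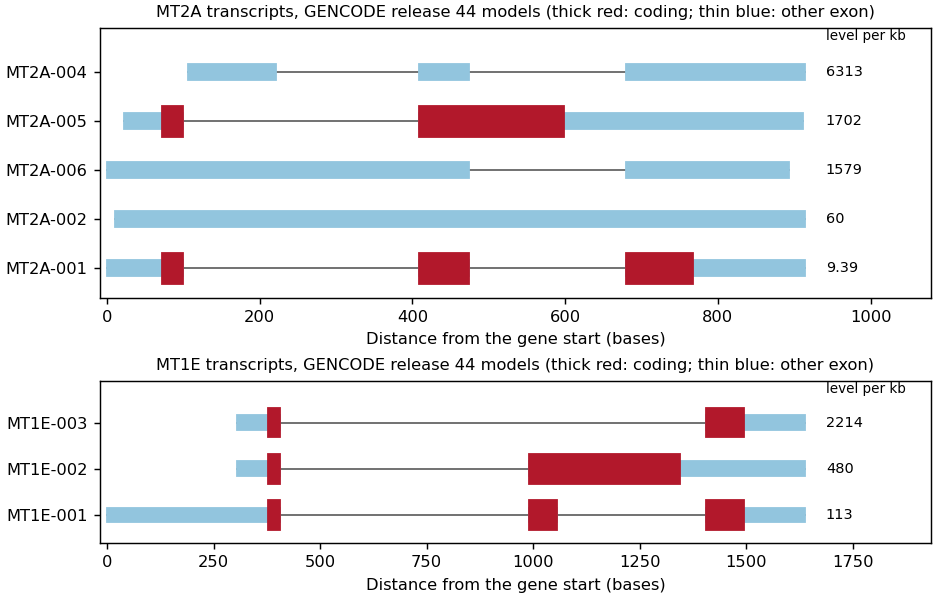
Exons of the listed MT2A and MT1E transcripts by distance from the gene start in bases, with coding parts thick and red, other exon parts thin and blue, and the level per kb at the right. The forms with 3 coding exons, MT2A-001 at 9.39 and MT1E-001 at 113, have the lowest level of each gene, and MT2A-001 is drawn at its release 44 length.

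MT1X and MT1F completed the series. MT1X-001, with the complete frame, had a mean normalized read count of 320 and 711 per kb, 84.3% of the MT1X level, and MT1X-003, with both introns retained, had 229 and a level of 133 per kb. By these estimates, MT1X was the one listed metallothionein whose complete frame held most of the level. Of the 50-base windows of MT1X-001, however, only 0.563% were found in that form alone, against 62.2% for MT1X-003. All MT1F forms were low, with mean normalized read counts of 21.6 for MT1F-003, 7.97 for the retained-intron form MT1F-002 and 7.46 for MT1F-001, which carries the complete frame and 15.97% of the MT1F level. The complete forms are listed with 690 bases for MT1F-001 and 450 for MT1X-001, against 425 and 404 in release 44. MT1F-003, at 76.5% of the MT1F level, has a frame of 44 codons with 11 for cysteine.

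The share of the complete frame thus ran from 0.0971% in MT2A over 4.03% in MT1E and 15.97% in MT1F to 84.3% in MT1X. By the annotated type, protein-coding transcripts made up 17.7% of the MT2A level, 84.3% of the MT1X level, 92.5% of the MT1F level and 100% of the MT1E level. For comparison, over the 9608 genes with at least 2 listed transcripts of which at least 1 was protein-coding, the median share from protein-coding transcripts was 89.0%, and 384 of these genes, or 3.997%, had a share below that of MT2A. A leading transcript of another type, as in MT2A, occurred in 16.4% of these genes.

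**Figure D4:**
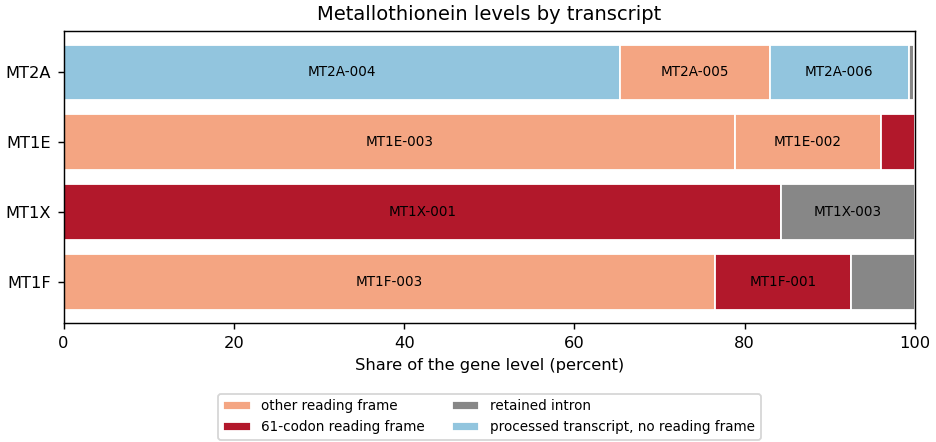
Share of each metallothionein's level (percent, x axis) held by its listed transcripts, with the complete 61-codon frame in red, other reading frames in orange, processed transcripts without a frame in blue and retained introns in grey. The red share is 84.3% in MT1X and too thin to see in MT2A at 0.0971%.

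The leading forms differed in how much sequence they shared with other genes. On both strands and over all GENCODE release 44 transcripts, 89.4% of the 50-base windows of MT2A-004, 98.2% of those of MT1E-003 and 99.7% of those of MT1F-003 were found in no other gene. For MT1X-001 it was 49.0%. The other genes that held its windows were led by ENSG00000259827, then MT1G and the pseudogene MT1XP1. The level of ENSG00000259827 was not looked up. The genes that shared windows with MT2A-004 were led by the pseudogene MT2P1. SLC30A1 shared none of its 5844 windows with another gene, and MTF1 0.900% of its own. The windows were cut from the release 44 forms, which differ in length from the listed ones here too. SLC30A1-001 has 5893 bases against 5474 listed, MTF1-001 7937 against 7972, and MT1E-002 746 against 729. With windows of 100 bases, MT1X-001 came to 78.0% and the leading forms of MT2A, MT1E and MT1F to 100%. The read length is not given in the sources used here, so which figure applies is unknown, and the level of MT1X in particular rests on how reads were divided.

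MT2A, MT1X, SLC30A1 and MTF1 matched an entry of the RefSeq promoter table (GRCh38.p14), in windows from 250 bases before to 50 after the gene start. The windows of the genes with matches are shown in the direction of the gene, 5′ to 3′, because metal response elements are the sites at which MTF1 is known to act. Capitals mark the core of the element, TGCACNC or TGCGCNC, on either strand, where N is any base.
MT2A: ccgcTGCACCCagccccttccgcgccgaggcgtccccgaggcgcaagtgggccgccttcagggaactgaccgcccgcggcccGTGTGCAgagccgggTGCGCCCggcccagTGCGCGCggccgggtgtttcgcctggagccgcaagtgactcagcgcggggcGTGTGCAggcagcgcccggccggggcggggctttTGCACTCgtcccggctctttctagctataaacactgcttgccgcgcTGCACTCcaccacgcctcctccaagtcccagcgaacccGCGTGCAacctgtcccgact
MT1X: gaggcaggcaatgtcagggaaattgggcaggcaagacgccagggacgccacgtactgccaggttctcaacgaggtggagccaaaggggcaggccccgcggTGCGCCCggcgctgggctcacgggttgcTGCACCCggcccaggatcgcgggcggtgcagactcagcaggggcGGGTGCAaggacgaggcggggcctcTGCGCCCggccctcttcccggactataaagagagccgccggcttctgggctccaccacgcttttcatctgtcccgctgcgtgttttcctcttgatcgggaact
SLC30A1: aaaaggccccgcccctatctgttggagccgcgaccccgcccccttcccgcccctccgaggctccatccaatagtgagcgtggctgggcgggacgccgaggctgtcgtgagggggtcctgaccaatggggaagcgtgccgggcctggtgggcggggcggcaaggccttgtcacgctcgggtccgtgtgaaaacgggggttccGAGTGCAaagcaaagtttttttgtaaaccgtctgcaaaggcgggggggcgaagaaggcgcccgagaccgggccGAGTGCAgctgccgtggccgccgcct
The windows are chr16:56608334-56608633 and chr16:56682220-56682519 on the plus strand for MT2A and MT1X, and chr1:211579112-211579411 on the minus strand for SLC30A1.

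The MT2A window held 8 matches, 6 of TGCACNC and 2 of TGCGCNC, and the MT1X window held 4, with 2 of each. None of them overlapped another. SLC30A1 had 2, both of TGCACNC on the strand opposite to the gene, and MTF1, at chr1:37859543-37859842 on the minus strand, had 0. Of all 35116 promoter windows of the table, 29.6% held at least 1 match. At least 8 matches were found in 7 windows, or 0.0199% of them, at least 4 in 0.601% and at least 2 in 8.60%. A match is a stretch of letters and not a shown site of binding.

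**Figure D5:**
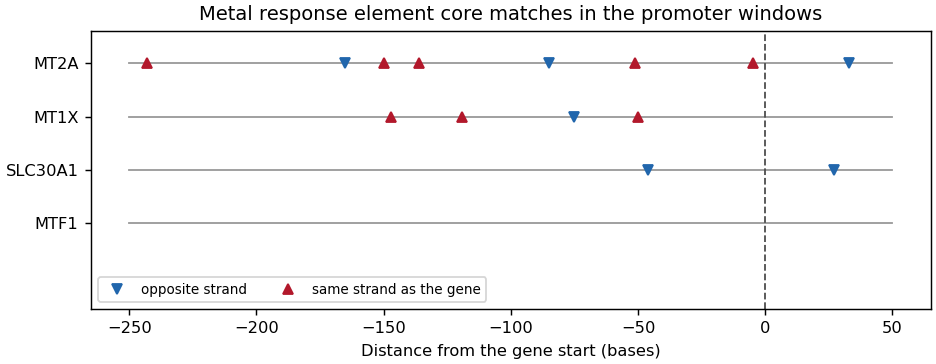
Positions of the metal response element core (triangles, up on the strand of the gene and down on the opposite one) by distance in bases from the gene start in the 4 promoter windows. MT2A has 8 matches along the whole window, MT1X 4 before the start, SLC30A1 2 and MTF1 0.

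The labelled line was checked against marker genes. The mesenchymal genes VIM, AXL, CAV1 and CD44 were all listed, with 10135 per kb for VIM and 427 for CD44 at the ends of their range. ESR1, PGR and CDH1 had no row, and of the other luminal or epithelial genes ERBB2, EPCAM and GATA3 had 44.3 per kb or less, while KRT18, KRT19 and KRT8 had 5378, 2426 and 384. The leukocyte genes PTPRC and CD3E and the endothelial gene CDH5 had no row, and PECAM1 had 4.08 per kb.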

How the data were processed

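RNA-seq libraries of the MDA-MB-231 line after 24 h in DMSO or 10 µM KH-3, 2 per condition by the labels, were used in the form of 1 deposited table. Per the study's methods, the authors mapped reads with STAR to GENCODE release 24 transcripts, used eXpress to estimate the reads of each transcript, and ran DESeq2 between groups; versions are not given in the sources used here. The mean normalized read count is a signal that the authors averaged over libraries. The authors' log2 fold changes, p-values and q-values hold their own comparison and were not used, so no test was run.

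Each mean was divided by the listed transcript length per 1000 bases and summed by gene symbol. Genes named are all members, the 3 highest of each fixed metal-handling list, and fixed markers; other pathway genes named only show position. Members and lists were chosen with earlier results of these data known. Sequence came from hg38, GENCODE release 44 and RefSeq promoters; MT1E, MT1F, MT1G and MT1M have no promoter entry there. All member transcripts were found in release 44 by ID without version. Protein sequence was planned but is not used here; reading frames took its place. Computations were tested on simulated data. Python 3.11.15, numpy 2.4.6, pandas 2.3.3 and matplotlib 3.10.9 were used.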

Additional observations from a re-analysis of the deposited data

How the results depend on the processing

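Depth, replicate spread and the effect of any single library are unknown, since the table has 1 mean per transcript. No paired analysis was possible because there are no values per library, and leaving out each library in turn was not run for the same reason. The division of reads among forms by eXpress and the lengths of short transcripts also limit the levels.

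With 200 bases taken off each length and transcripts under 250 bases left out, MT2A held 68.3% of the summed metallothionein level and the median percentile of the 6 listed genes was 71.6, against 70.5 with all listed transcripts at full length. Gene levels were then 17070 per kb for MT2A, 6388 for MT1E, 1431 for MT1X, 121 for MT1F, 114 for SLC30A1 and 61.1 for MTF1, so MT1F passed SLC30A1. Without division by length, the MT2A share was 73.1%, the median percentile 65.9, and the summed mean normalized read counts were 4763 for MT2A, 1165 for MT1E, 601 for SLC30A1, 550 for MT1X, 475 for MTF1 and 37.0 for MT1F. The leading transcript then held 55.1% of MT2A, 63.1% of MT1E, 58.3% of MT1X and 58.3% of MT1F.

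With protein-coding transcripts alone, MT2A fell to 1712 per kb, below MT1E, its share to 32.3%, MT1X to 711 and MT1F to 62.6 per kb, and the median percentile was 69.1. The leading transcript then held 99.5% of MT2A, 100% of MT1X and 82.7% of MT1F. With the highest transcript alone, the levels were 6313 for MT2A, 2214 for MT1E, 711 for MT1X and 51.8 for MT1F, the MT2A share 67.95% and the median percentile 77.1, and MTF1 was above MT1F. Windows of 100 bases were added after the data were seen.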
